A study of Mus musculus with 25 samples.

Results

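The 45 genes described here had mean levels in the mouse brain that went down at each step from 2 to 9, 15 and 24 months of age. They were chosen by a rule on CPM, the counts of a gene per 1 000 000 counts of its library, after scaling with TMM, a method that sets libraries to a common level. A member had to be protein-coding, to average at least 5 CPM over the libraries of 2 to 24 months, to have group means ordered 2 > 9 > 15 > 24 months, and to have a mean at 24 months of at most 0.8 times that at 2 months. Each of its 24 month libraries also had to lie below each of its 2 month libraries. Of 17799 genes tested, 15231 were protein-coding and 11484 of those met the limit on level. The order of the means held for 567 of the 11484 genes (4.94%), the ratio for 59 of these, and the separation of the libraries for 45. The limit of 200 genes was not reached. The same rule turned upside down, for means that went up, was met by 118 genes.

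These values chose the members, so their differences among 2, 9, 15 and 24 months are given as descriptions and carry no test. The rule set no condition on the 30 month libraries, though the filter on low counts and the TMM scaling were computed over all 25 libraries. Tests of members are given for 30 months alone, with the reminder that their 24 month libraries were chosen low and their 2 month libraries high. Genes that are not members are also tested at 24 against 2 months. The rule had already taken the members out of those genes by the same contrast.

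The tissue was the brain hemisphere of male C57BL/6 mice, an inbred strain, with 5 libraries each at 2, 9, 15, 24 and 30 months. The labels give no treatment and no altered genotype for any age, and total RNA was made into libraries with Illumina's TruSeq RNA kit. Each library has a number of its own in its title, and nothing further says that the libraries came from separate animals, so p-values measure the spread between these samples, which may be technical. A hemisphere holds many cell types, and in such bulk RNA fewer cells of a type and less RNA per cell cannot be told apart.

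Library totals ran from 17.8 to 31.3, in units of 1 000 000 counts. Markers of neurons, oligodendrocytes, astrocytes, microglia and vessels were present in all 25 libraries, the least abundant being the endothelial Cldn5 at 16.3 to 56.6 CPM. Replicates 2 to 5 of 30 months stood apart by base composition. The log2 difference between the 10% of genes with the highest and the 10% with the lowest GC content, each relative to the younger libraries, was 1.14 to 2.08 in these 4 libraries and 0.132 in replicate 1 of the same age. The 20 libraries of the younger ages had -0.252 to 0.149. Results for 30 months are therefore given with and without those 4 libraries, and with a GC offset, a correction per library for the GC content of each gene. The liver transcript Alb (albumin) was at 38.5 to 171 CPM in the 24 month libraries and at 0 to 128 CPM in the 2 month ones. Replicate 1 of 9 months had a summed level of choroid plexus markers of 365 CPM, against 887 to 1429 CPM in the other libraries.

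As background, the postnatal brain goes on making new oligodendrocytes from precursor cells, and in a few niches new neurons, and genes of these immature stages are known to be less active in older animals. Receptor tyrosine kinases such as MET and the Eph receptors, secreted signals of the Wnt and PDGF families, and fibrillar collagens shape tissue while it grows and remain at low levels in the adult. Grouped by hand by their known roles, the members are 3 genes of the oligodendrocyte lineage, 6 surface receptors, 3 secreted signals, 5 matrix genes, 3 adhesion molecules, 4 genes of growing neurons, 3 enzymes that build glycans, 1 cyclin, 6 genes of signal relay and ion channels, 3 zinc finger proteins and 8 others.

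**Figure D1:**
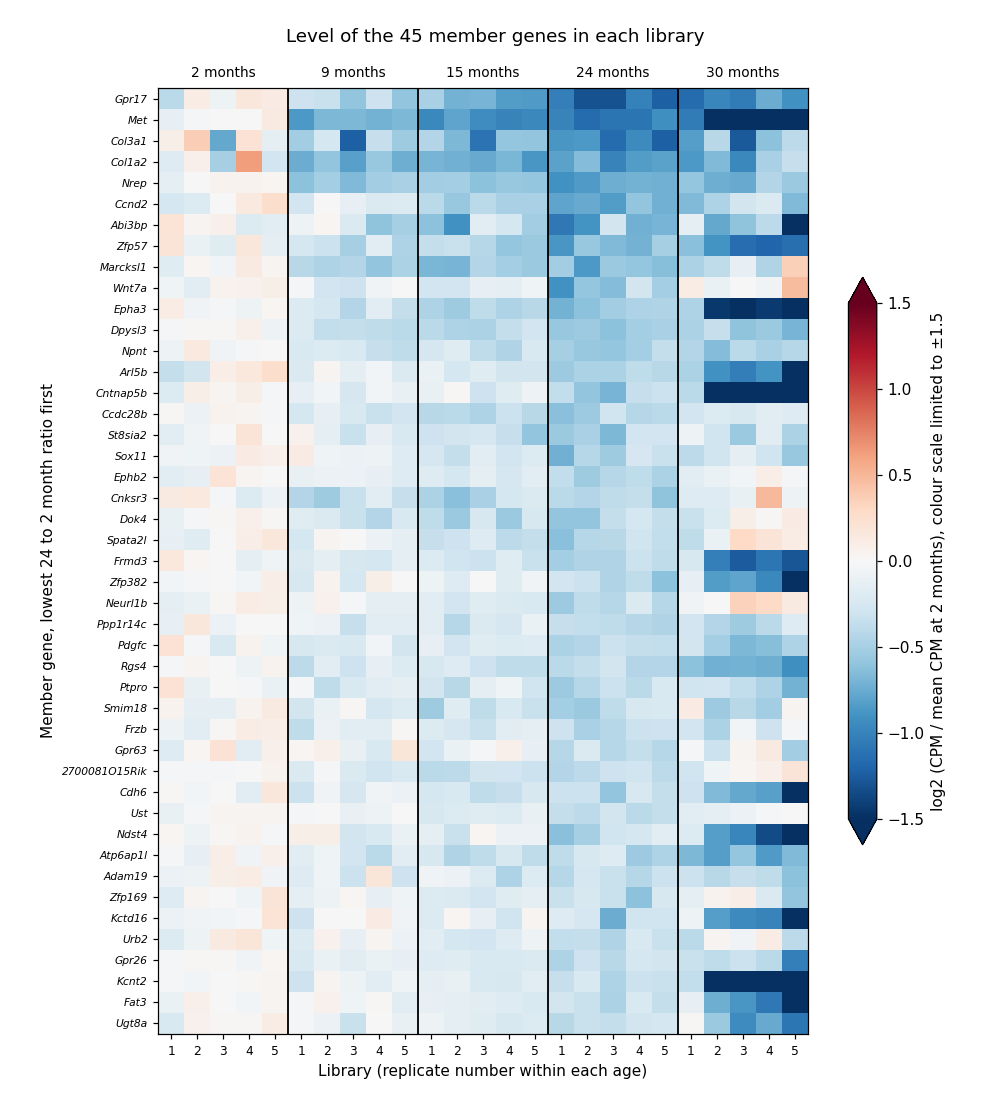
Level of the 45 members (rows, lowest 24 to 2 month ratio at the top) in each of the 25 libraries (columns), as log2 of CPM over the gene's mean at 2 months, with the colour scale limited to ±1.5. Blue deepens from 9 to 24 months by the choice of the genes, and at 30 months replicates 2 to 5 hold both deep blue (among others Met, Kcnt2, Cntnap5b and Epha3) and values near or above 2 months (Neurl1b, Spata2l).

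The stretch before the start of each gene was read for short motifs in the RefSeq promoter table of GRCm38.p6, which held 32 of the 45 members. Windows of 250 bases upstream were searched on both strands for 5 motifs. The TATA box was searched as TATAAA and the CCAAT box by the letters of its name. The GC box, which Sp factors bind, was searched as GGGCGG. The E-box was searched as CACGTG. The site of SOX factors was searched as AACAAT. The windows of 3 members, Col3a1, Wnt7a and Rgs4, are shown from 5′ to 3′ on the strand of the gene. Motif matches of either strand are in capitals. Col3a1 and Rgs4 are among the 3 members with TATAAA, and Col3a1 is the 1 member with AACAAT. These windows therefore do not stand for the 32. They lie at chr1:45311288-45311537 (plus strand), chr6:91411354-91411603 (minus strand) and chr1:169747643-169747892 (minus strand).
Col3a1: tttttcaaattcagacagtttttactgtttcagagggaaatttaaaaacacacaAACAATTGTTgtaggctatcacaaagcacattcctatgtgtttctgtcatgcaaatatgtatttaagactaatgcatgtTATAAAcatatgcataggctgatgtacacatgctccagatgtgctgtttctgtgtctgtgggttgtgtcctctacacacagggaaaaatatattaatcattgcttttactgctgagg
Wnt7a: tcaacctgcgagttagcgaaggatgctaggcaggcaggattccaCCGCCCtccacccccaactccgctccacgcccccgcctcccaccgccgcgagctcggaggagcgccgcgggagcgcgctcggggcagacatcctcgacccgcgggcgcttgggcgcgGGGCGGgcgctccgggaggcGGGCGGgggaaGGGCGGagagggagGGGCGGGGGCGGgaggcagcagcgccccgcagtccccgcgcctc
Rgs4: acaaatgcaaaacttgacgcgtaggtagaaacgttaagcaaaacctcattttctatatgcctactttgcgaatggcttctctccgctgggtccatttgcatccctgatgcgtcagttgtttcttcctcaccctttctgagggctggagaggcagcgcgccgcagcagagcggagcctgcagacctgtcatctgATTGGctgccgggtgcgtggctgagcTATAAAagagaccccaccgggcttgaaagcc
The Col3a1 window has a GC content of 35.2% and holds a TATAAA and an overlapping pair of AACAAT matches on both strands. The last 10 bases of the Wnt7a window lie within its GENCODE gene. The window has a GC content of 77.6% and holds 6 matches of GGGCGG, 1 of them on the other strand. The Rgs4 window has a GC content of 53.6% and holds a TATAAA and a CCAAT on the other strand.

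Over the 32 members, TATAAA was in 9.38% of windows (Col3a1, Rgs4 and Zfp57), against 5.803% of the 9065 windows of genes at the level limit and 11.9% of all 16520. CCAAT was in 31.25% of the members' windows, against 35.6% and 36.1%, and GGGCGG in 56.25%, against 61.8% and 44.5%. CACGTG was in 9.38%, against 8.74% and 6.79%, and AACAAT in 3.13% (Col3a1), against 4.91% and 8.43%. Windows rich in CpG, with an observed to expected ratio of at least 0.6 and a GC content of at least 50%, made up 53.1% of the members' windows, 66.5% of those at the level limit and 43.6% of all. A match is a description of the letters, and none of these shares was tested.

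The ratio of 24 to 2 months ran from 0.445 in Gpr17 to 0.798 in Ugt8a. Relative to 2 months, the median member stood at 89.5% at 9 months, 83.0% at 15 months and 74.7% at 24 months. At the limit of the ratio, Kcnt2 (0.792), Fat3 (0.796) and Ugt8a (0.798) lay just inside and Ypel1 (0.802), Desi2 (0.806) and Gm38393 (0.806) just outside. At the limit of the level, Smim18 (5.03 CPM), Zfp382 (6.23 CPM) and Zfp169 (6.66 CPM) were inside, and Cish (4.63 CPM), Zfp948 (4.505 CPM) and Zfp804b (3.47 CPM) met all else. There were 18 genes of that last kind. A further 14 failed the separation of the libraries alone, among them Ryr1, Hs6st3 and Kcnh5 with the smallest overlap. Urb2, Gpr63 and Ugt8a had the smallest gaps inside: the highest 24 month library of Urb2 was at 16.7 CPM and its lowest 2 month library at 16.9 CPM. The first collagen chain Col1a1, with a ratio of 0.519, is also among the 14, its highest 24 month library being at 20.4 CPM and its lowest 2 month library at 18.2 CPM. Col1a1 was singled out after its values were seen.

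Gpr17 had the lowest ratio of all members. It encodes a G protein-coupled receptor that marks precursors on their way to becoming oligodendrocytes and is switched off before myelin is made. The gene (ENSMUSG00000052229) lies at chr18:31942997-31949636 on the minus strand of GRCm38. Its 5 libraries were at 48.3, 69.3, 61.1, 72.4 and 69.6 CPM at 2 months, 51.8, 50.99, 42.5, 51.8 and 42.4 CPM at 9 months and 45.6, 39.3, 39.6, 36.01 and 35.5 CPM at 15 months. At 24 months they were at 31.4, 26.01, 25.9, 31.8 and 27.4 CPM, and at 30 months at 28.9, 32.6, 31.05, 38.2 and 34.05 CPM. The 24 month libraries all lay below the 15 month ones, and replicate 1 of 2 months was below 3 of the 9 month libraries. The mean went from 64.1 ± 9.83 CPM (SD, n = 5) at 2 months to 28.5 ± 2.905 CPM at 24 months and 32.9 ± 3.49 CPM at 30 months. In edgeR's quasi-likelihood test with Benjamini-Hochberg adjustment, the 30 month level was lower than that of 2 months (log2 fold change -0.96, SE 0.10, adjusted p = 2.72e-07) and differed from that of 24 months by 0.21 (SE 0.10, adjusted p = 0.0884). Without replicates 2 to 5 the difference from 2 months was -1.15 (adjusted p = 0.00163) and that from 24 months was 0.01 (adjusted p = 0.99).

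Other genes of the oligodendrocyte lineage give the setting. On the list of premyelinating oligodendrocytes and their Gpr17 network, 22 of 22 genes were tested and 2, Gpr17 and Cnksr3, were members. Of the other 20, 4 were lower at 24 than at 2 months in edgeR's test (Rnf122, Emid1, Rras2 and Fyn) and 1 was higher (Bcas1, at 144 CPM and 195 CPM). Over all genes tested, 1.85% were called lower and 3.38% higher in this comparison. The median log2 difference of the other 20 was -0.15, against 0.0021 for all genes. This list, like the others used here, was chosen with earlier results of these data known, so nothing is read from the comparison with all genes. Emid1 stands on the list of collagen and matrix genes as well. The ubiquitin ligase gene Rnf122 had means of 7.67, 4.68, 4.23 and 4.29 CPM at 2, 9, 15 and 24 months (log2 fold change of 24 with 2 months -0.84, SE 0.11, adjusted p = 5.09e-05). Enpp6, which newly formed oligodendrocytes express, went from 8.497 to 7.69 CPM (-0.14, SE 0.18, adjusted p = 0.748). Of 14 precursor markers 0 were members, 0 were called lower in edgeR's test, also at an unadjusted p under 0.05, and 1, Sox10, was called higher. The precursor receptor Pdgfra was at 80.97 CPM at 2 months and 74.98 CPM at 24 months (-0.11, SE 0.08, adjusted p = 0.52). Of 16 myelin genes, 1 was a member (Ugt8a), 3 others were called lower (Mog, Cldn11 and Tspan2) and 2 higher (Myrf and Gjb1).

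The other members of this lineage were less reduced. Cnksr3, a scaffold of kinase signalling, was at 9.43, 9.55, 8.48, 7.42 and 8.08 CPM at 2 months, 6.32, 5.94, 6.81, 7.67 and 6.77 CPM at 9 months and 6.197, 5.57, 6.12, 7.15 and 7.395 CPM at 15 months. Its libraries were at 6.51, 6.33, 6.61, 6.71 and 5.66 CPM at 24 months and 7.49, 7.51, 7.95, 11.99 and 8.16 CPM at 30 months. Of its drop to 24 months, 84.7% was reached by 9 months, and replicate 4 of 30 months stood above all other libraries. Ugt8a, which makes the myelin lipid galactocerebroside, averaged 83.96 ± 7.46 CPM (SD, n = 5) at 2 months and 67.03 ± 2.85 CPM at 24 months. At 30 months its libraries were at 85.3, 56.9, 43.7, 49.6 and 39.5 CPM. Replicate 1 lay within the 2 month range of 71.4 to 90.9 CPM and the 4 others below the 24 month range. The difference of 30 from 24 months was -0.28 (SE 0.13, adjusted p = 0.0637), 0.34 without replicates 2 to 5 (adjusted p = 0.0774) and 0.63 with the GC offset (adjusted p = 7.72e-08). The GC content of its longest transcript was 38.01%, against a median of 48.95% over the members.

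Met, the receptor of hepatocyte growth factor and a receptor tyrosine kinase of growing neurons, had its largest step before 9 months. The gene (ENSMUSG00000009376) lies at chr6:17463800-17573980 on the plus strand. Its libraries were at 11.97, 12.8, 13.1, 13.05 and 14.3 CPM at 2 months, 7.16, 8.16, 8.21, 8.002 and 8.17 CPM at 9 months and 6.69, 7.53, 6.81, 6.53 and 6.69 CPM at 15 months. At 24 months they were at 6.51, 5.86, 6.12, 6.096 and 6.89 CPM and at 30 months at 6.33, 3.54, 3.41, 3.81 and 2.38 CPM. All 9 month libraries lay below all 2 month ones, and 75.7% of the drop to 24 months was reached by then. Replicate 1 of 30 months lay within the 24 month range, and replicates 2 to 5 lay below it. The 30 month level was lower than at 2 months with all libraries (log2 fold change -1.74, SE 0.14, adjusted p = 6.88e-09, edgeR) and without replicates 2 to 5 (-1.05, SE 0.13, adjusted p = 9.43e-07). It was lower than at 24 months with all libraries (-0.69, adjusted p = 0.000347), and the difference was -0.003 without replicates 2 to 5 (SE 0.13, adjusted p = 0.997).

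Of 25 genes listed for HGF and MET signalling, 24 were tested, and Met was the 1 member. Among the other 23, 1 was called lower at 24 than at 2 months (Sema4d, at 58.6 and 50.9 CPM) and none higher. The ligand gene Hgf was at 7.45 CPM at 2 months and 7.12 CPM at 24 months (log2 fold change -0.06, SE 0.24, adjusted p = 0.939). The adaptor gene Gab1, which docks to the active receptor, was at 50.5 and 52.7 CPM (0.06, SE 0.06, adjusted p = 0.669). At an unadjusted p under 0.05, 3 were lower and 1 higher. The median log2 difference of the other 23 was 0.0083.

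The Eph receptors Epha3 and Ephb2 bind ephrins on neighbouring cells and steer growing axons. Epha3 (ENSMUSG00000052504, chr16:63543534-63864175) had means of 13.4, 11.04, 9.83 and 9.17 CPM at 2, 9, 15 and 24 months. All 9 month libraries lay below all 2 month ones. Its 30 month libraries were at 9.76, 4.92, 3.76, 4.96 and 2.77 CPM, with replicate 1 within the 24 month range of 8.205 to 9.79 CPM and the others below it. It was lower at 30 than at 2 months with all libraries (-1.35, SE 0.18, adjusted p = 3.66e-06) and without replicates 2 to 5 (-0.47, SE 0.11, adjusted p = 0.00703). Ephb2 (ENSMUSG00000028664, chr4:136647539-136835988) had means of 23.6, 21.7, 20.4 and 17.4 CPM over the same ages and 21.1, 21.995, 22.9, 25.3 and 23.1 CPM in the 30 month libraries. All 5 of these lay above the 24 month range, and the difference of 30 from 24 months was 0.39 (SE 0.06, adjusted p = 4.12e-05), or 0.26 without replicates 2 to 5 (adjusted p = 0.138). Of 36 axon guidance genes, 2 were members, and none of the other 34 was called lower or higher at 24 than at 2 months in edgeR's test. The median log2 difference of these 34 was -0.12, and 26 of them had a lower mean at 24 months. At an unadjusted p under 0.05, 10 of the 34 were lower and 3 higher.

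The remaining receptors were the phosphatase Ptpro and the G protein-coupled receptors Gpr26 and Gpr63, with ratios of 0.767, 0.788 and 0.774. Gpr26 was at 277 to 292 CPM at 2 months and 207 to 239 CPM at 24 months. Gpr63 dropped late: 6.74, 7.86, 8.96, 6.92 and 8.13 CPM at 2 months, 7.85, 8.12, 7.15, 6.59 and 8.77 CPM at 9 months and 6.31, 7.18, 7.54, 8.15 and 7.11 CPM at 15 months, then 5.75, 6.63, 5.74, 6.01 and 5.76 CPM at 24 months. Of its drop, 1.41% was reached by 9 months and 73.4% lay between 15 and 24 months.

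**Figure D2:**
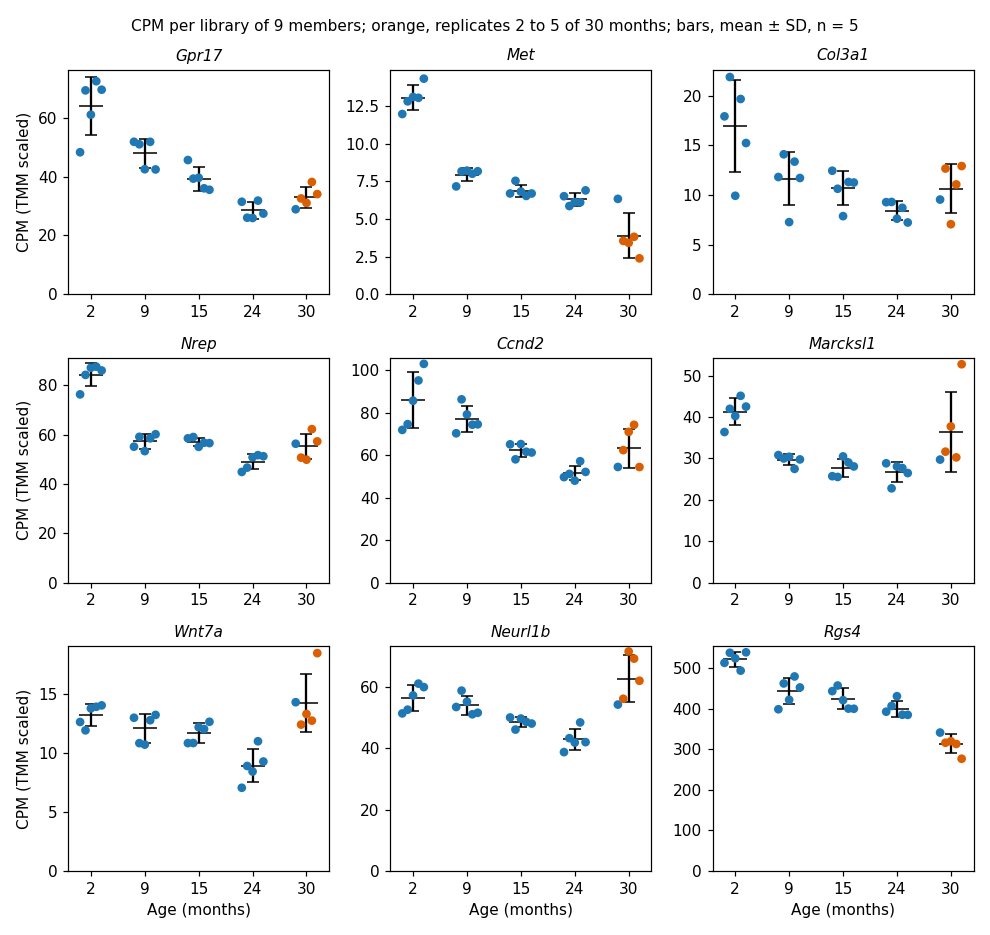
CPM per library at each age (months) for 9 members; points are libraries, orange points are replicates 2 to 5 of 30 months, and bars give the mean ± SD (n = 5). Met and Nrep have most of their drop before 9 months, Gpr17 and Ccnd2 step down through 24 months, and Wnt7a and Neurl1b at 30 months lie above all their 24 month libraries.

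Among the secreted signals, Wnt7a was lowest at 24 months, and its 30 month libraries all lay above the 24 month ones. It encodes a Wnt ligand that neural cells send to growing brain vessels. The gene (ENSMUSG00000030093) lies at chr6:91363981-91411363 on the minus strand. Its libraries were at 12.7, 11.9, 13.8, 13.9 and 14.1 CPM at 2 months, 13.01, 10.9, 10.7, 12.8 and 13.3 CPM at 9 months and 10.9, 10.9, 12.2, 12.1 and 12.7 CPM at 15 months. They were at 7.06, 8.91, 8.44, 11.02 and 9.29 CPM at 24 months and 14.3, 12.4, 13.3, 12.8 and 18.5 CPM at 30 months. At 30 months replicate 5 was the highest of the 25. The difference of 30 from 24 months was 0.68 on the log2 scale with all libraries (SE 0.11, adjusted p = 4.41e-05, edgeR), 0.68 without replicates 2 to 5 (SE 0.14, adjusted p = 0.00323) and 0.47 with the GC offset (SE 0.10, adjusted p = 0.000395). Its 24 month libraries were chosen low, and against 2 months the difference was 0.10 (SE 0.11, adjusted p = 0.425). Pdgfc, a ligand of the PDGF receptor alpha, averaged 10.1 ± 1.14 CPM (SD, n = 5) at 2 months and 7.73 ± 0.342 CPM at 24 months. Frzb, a secreted antagonist of Wnt signals, averaged 27.3 ± 2.23 CPM and 21.2 ± 1.12 CPM.

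Col3a1 and Col1a2 encode chains of the fibrillar collagens, which in brain come mostly from meninges and vessel walls. Col3a1 (ENSMUSG00000026043, chr1:45311538-45349706, plus strand) was at 17.9, 21.9, 9.92, 19.7 and 15.2 CPM at 2 months and 11.8, 14.1, 7.27, 13.4 and 11.7 CPM at 9 months. It was at 12.4, 10.6, 7.87, 11.3 and 11.3 CPM at 15 months, 9.28, 9.302, 7.61, 8.71 and 7.23 CPM at 24 months and 9.54, 12.7, 7.05, 11.1 and 12.9 CPM at 30 months. Replicate 3 of 2 months was well below the other libraries of its age. Col1a2 (ENSMUSG00000029661, chr6:4504814-4541544) was at 43.9, 52.8, 35.4, 76.99 and 40.97 CPM at 2 months and 29.9, 33.1, 28.5, 33.7 and 30.01 CPM at 9 months. It was at 30.8, 30.3, 29.6, 31.2 and 27.4 CPM at 15 months, 28.7, 31.8, 24.9, 28.04 and 28.6 CPM at 24 months and 27.6, 31.7, 25.6, 35.6 and 39.4 CPM at 30 months. The 2 month libraries were spread most, with replicate 4 the highest, and 87.8% of the drop was reached by 9 months, after which the libraries of different ages overlapped.

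The collagens are set here beside the liver transcript Alb. Within each age, the library with the most Alb had the lowest Col3a1 at 2, 9, 24 and 30 months and the second lowest at 15 months. At 2 months this was replicate 3, with 128 CPM of Alb and 9.92 CPM of Col3a1, against 15.2 to 21.9 CPM of Col3a1 in the others. At 30 months it was again replicate 3, with 125 CPM of Alb and 7.05 CPM of Col3a1, against 9.54 to 12.9 CPM. Below the top library the order did not always hold. At 24 months replicate 2, with 136 CPM of Alb, had the highest Col3a1 (9.302 CPM), and replicate 3, with the least Alb (38.5 CPM), the second lowest (7.61 CPM). For Col1a2 the library with the most Alb was the lowest at 2, 9 and 30 months and the third of 5 at 15 and 24 months. With the mean log2 level of 18 liver genes as a covariate, the ratio of 24 to 2 months was 0.718 for Col3a1 and 0.656 for Col1a2, against 0.498 and 0.568 without it. Of the 45 members, 40 kept a ratio of at most 0.8 with the covariate and all 45 one below 1. The 5 above 0.8 were Ppp1r14c, Pdgfc, Kcnt2, Fat3 and Ugt8a, with Ugt8a highest at 0.869. Every liver gene of the list had a higher mean at 24 than at 2 months, and liver RNA's part in the members' levels was not tested beyond these values. The list includes Trf and Ttr, and Ttr stands on the list of choroid plexus genes as well.

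**Figure D3:**
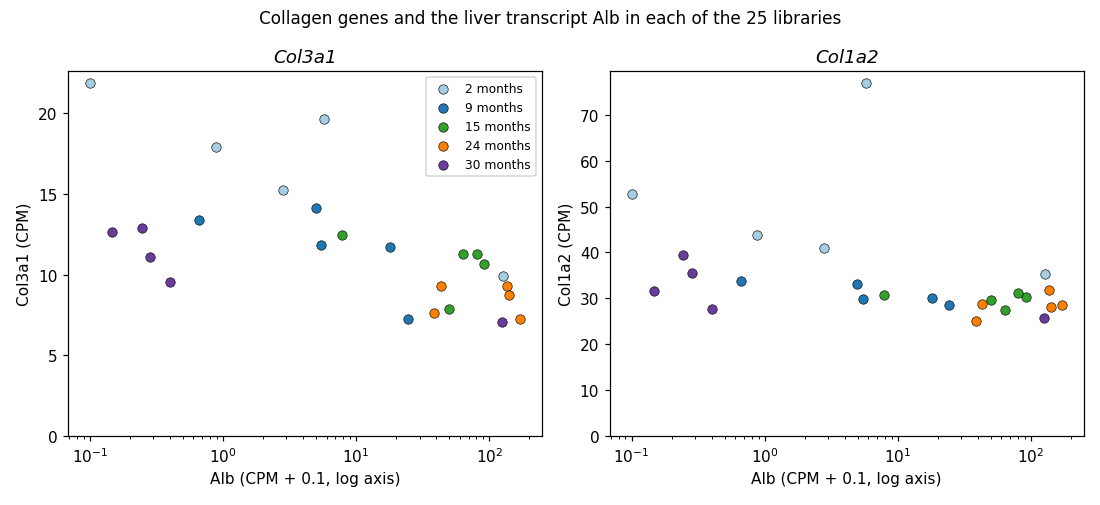
Level of Col3a1 (left) and Col1a2 (right) in CPM against the liver transcript Alb (CPM + 0.1, log axis) in each of the 25 libraries, coloured by age. The 2 month library with 128 CPM of Alb is the lowest of its age for both genes, and the 24 month libraries all lie at 38.5 CPM of Alb or more.

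Of 27 collagen and matrix genes listed, Col3a1 and Col1a2 were members. Of the other 25, 4 were called lower at 24 than at 2 months (Col1a1, Emid1, Tnc and Nid1) and 1 higher (Col6a2), with a median log2 difference of -0.078 over the other 25. Col1a1, the partner chain of Col1a2, had means of 34.3, 20.97, 20.6 and 17.8 CPM at 2, 9, 15 and 24 months (log2 fold change of 24 with 2 months -0.94, SE 0.20, adjusted p = 0.00724). The basement membrane collagen Col4a1 was at 58.95 and 58.7 CPM (-0.01, SE 0.07, adjusted p = 0.981). Of 14 markers of leptomeningeal fibroblasts, 0 were called in either direction in edgeR's test, and 1 each way had an unadjusted p under 0.05, with Dcn (decorin) at 27.7 CPM at 2 months and 28.6 CPM at 24 months. Of 12 genes of pericytes and smooth muscle, 1 was called lower (Notch3).

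The other matrix members were Abi3bp, Npnt and Adam19. Abi3bp, a matrix protein that binds collagen, was at 21.6, 19.3, 19.7, 16.3 and 16.7 CPM at 2 months and 8.897, 10.1, 15.5, 11.4 and 11.6 CPM at 24 months. Replicate 3 of 24 months, at 15.5 CPM, lay just below the lowest 2 month library at 16.3 CPM. Npnt (nephronectin), a ligand of integrins, averaged 31.2 ± 2.01 CPM (SD, n = 5) at 2 months, 22.05 ± 1.41 CPM at 24 months and 22.3 ± 1.49 CPM at 30 months. It was lower at 30 than at 2 months with all libraries (-0.48, SE 0.06, adjusted p = 3.63e-06) and without replicates 2 to 5 (-0.44, SE 0.10, adjusted p = 0.00327). The metalloproteinase gene Adam19 averaged 21.8 ± 1.48 CPM and 17.1 ± 0.91002 CPM at these younger ages. Among the adhesion molecules, the cadherin Cdh6, the giant cadherin Fat3 and the contactin-associated Cntnap5b had ratios of 0.778, 0.796 and 0.729. Cntnap5b (ENSMUSG00000067028, chr1:99772765-100485942) dropped late, with means of 25.6, 23.7, 23.4 and 18.7 CPM at 2, 9, 15 and 24 months and 68.1% of the drop after 15 months. At 30 months it was at 19.3, 8.42, 6.51, 6.52 and 2.62 CPM, with replicate 1 within the 24 month range and the others at less than 9 CPM.

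There were 4 members known from growing neurons. Nrep, a small protein of regenerating neurons, was at 76.3, 84.2, 87.1, 87.5 and 85.97 CPM at 2 months, 55.1, 59.1, 53.3, 58.5 and 60.1 CPM at 9 months and 58.5, 58.995, 55.002, 56.7 and 56.5 CPM at 15 months. It was at 44.8, 46.6, 50.8, 51.6 and 51.2 CPM at 24 months and 56.3, 50.6, 49.8, 62.2 and 57.2 CPM at 30 months. All 9 month libraries lay below all 2 month ones and all 24 month libraries below all 15 month ones, with means of 57.2 CPM at 9 months and 57.1 CPM at 15 months in between. The 30 month level was lower than at 2 months with all libraries (-0.61, SE 0.06, adjusted p = 7.56e-08) and without replicates 2 to 5 (-0.59, SE 0.08, adjusted p = 3.59e-06), while with the GC offset the difference was 0.0013 (adjusted p = 0.995). Dpysl3, a cytoskeletal protein of growing axons, averaged 78.7 ± 2.9997 CPM (SD, n = 5) at 2 months, 62.2 ± 3.52 at 9 months, 53.9 ± 1.92 at 24 months and 54.4 ± 5.04 at 30 months. It was lower at 30 than at 2 months in all 3 fits (log2 fold change -0.53 with all libraries, SE 0.06, adjusted p = 2.54e-07).

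Marcksl1, a membrane protein that binds actin, was at 36.4, 42.01, 40.3, 45.2 and 42.6 CPM at 2 months and 30.8, 30.002, 30.4, 27.5 and 29.8 CPM at 9 months. It was at 25.7, 25.5, 30.5, 29.02 and 28.1 CPM at 15 months, 28.8, 22.8, 28.1, 27.7 and 26.5 CPM at 24 months and 29.7, 31.7, 37.8, 30.3 and 52.8 CPM at 30 months. Of the drop, 79.8% was reached by 9 months, and replicate 5 of 30 months was the highest of the 25 libraries. Sox11, a transcription factor of new neurons, dropped later, with means of 19.5, 18.7, 16.4 and 14.3 CPM at 2, 9, 15 and 24 months and 14.7% of the drop by 9 months. On the list of immature neurons, 22 genes were tested and 4 were members. Of the other 18, 2 were called lower at 24 than at 2 months (Sox4 and Igfbpl1) and 0 higher, against 7 and 2 at an unadjusted p under 0.05, with a median log2 difference of -0.084 over these 18. Dcx (doublecortin), the standard marker of newborn neurons, had means of 63.9, 44.8, 52.03 and 47.2 CPM (log2 fold change of 24 with 2 months -0.44, SE 0.20, adjusted p = 0.227). Gap43, of growth cones, was at 234 and 227 CPM (-0.04, SE 0.04, adjusted p = 0.676).

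Ccnd2 (cyclin D2), which drives the entry of neural progenitors into the cell cycle, had lower means at each age to 24 months and a higher one at 30 months. The gene (ENSMUSG00000000184) lies at chr6:127125162-127152193 on the minus strand. Its libraries were at 71.8, 74.5, 85.6, 95.1 and 103 CPM at 2 months, 70.2, 86.2, 79.1, 74.3 and 74.4 CPM at 9 months and 65.04, 57.98, 65.1, 61.5 and 61.2 CPM at 15 months. They were at 49.6, 51.1, 47.96, 57.1 and 52.1 CPM at 24 months and 54.4, 62.3, 70.9, 74.2 and 54.4 CPM at 30 months. The 2 and 9 month libraries overlapped, the 15 month libraries all lay below the 9 month ones, and the 24 month libraries all lay below the 15 month ones. The 30 month level was higher than at 24 months with all libraries (log2 fold change 0.29, SE 0.09, adjusted p = 0.00997, edgeR). With the GC offset this difference was 0.45 (SE 0.10, adjusted p = 0.000645), and without replicates 2 to 5 it was 0.07. Replicate 1 of 30 months lay within the 24 month range, and the 24 month libraries were chosen low. Relative to 2 months the 30 month level was lower in all 3 fits (-0.44, SE 0.09, adjusted p = 0.000313 with all libraries). Of 19 genes listed for cell division, 15 were tested. Of the 14 that were not members, 3 were called lower at 24 than at 2 months (Mki67, Top2a and Cenpf) and 1 higher (Ccnd1, cyclin D1). Mki67, a marker of dividing cells, had means of 3.89, 1.96, 2.01 and 1.67 CPM, below the limit on level (log2 fold change of 24 with 2 months -1.19, SE 0.25, adjusted p = 0.00586). The median log2 difference of those 14 was -0.41.

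The glycan enzymes St8sia2, Ust and Ndst4, which add polysialic acid and sulfate groups, had ratios of 0.732, 0.780004 and 0.7801. St8sia2 was at 7.28 to 9.28 CPM at 2 months and 5.09 to 6.66 CPM at 24 months. Ust was at 33.3 to 37.03 CPM at 2 months, 27.1 to 29.6 CPM at 24 months and 32.1 to 35.9 CPM at 30 months, the last all above the 24 month range.

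Among genes of signal relay, Rgs4 was the most abundant member per kilobase of exon, at 168 CPM per kilobase at 2 months, against 25.7 in the next highest, Marcksl1. Rgs4 (ENSMUSG00000038530, chr1:169741477-169747642, minus strand) encodes a brake on G protein signalling that is abundant in cortex. Its libraries were at 513, 538, 524, 494 and 539 CPM at 2 months, 399, 462, 422, 479 and 452 CPM at 9 months and 443, 457, 421, 400.2 and 399.9 CPM at 15 months. They were at 393, 407, 431, 385 and 385 CPM at 24 months and 341, 316, 319.7, 313 and 277 CPM at 30 months. With Atp6ap1l, it is 1 of 2 members (4.44%, against 8.46% of all genes) whose 30 month libraries all lay below the 24 month ones. The 30 month level was lower than at 2 months with all libraries (-0.74, SE 0.06, adjusted p = 3.41e-09), without replicates 2 to 5 (-0.62, SE 0.09, adjusted p = 9.23e-05) and with the GC offset (-0.28, adjusted p = 0.000853). Relative to 24 months the difference was -0.35 with all libraries (adjusted p = 4.68e-05), -0.24 without replicates 2 to 5 (adjusted p = 0.157) and 0.08 with the GC offset (adjusted p = 0.346).

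Neurl1b, a ubiquitin ligase that acts on Notch ligands, is with Wnt7a the member that was higher at 30 than at 24 months in all 3 fits. Its libraries were at 51.4, 52.7, 57.3, 61.2 and 60.04 CPM at 2 months, 38.8, 43.4, 41.9, 48.5 and 42.1 CPM at 24 months and 54.3, 56.2, 71.7, 69.4 and 62.1 CPM at 30 months. The 30 month libraries all lay above the 24 month ones, by 0.55 on the log2 scale (SE 0.07, adjusted p = 7.74e-06) and by 0.34 without replicates 2 to 5 (SE 0.09, adjusted p = 0.0258). With the GC offset the difference was 0.34 (SE 0.07, adjusted p = 0.000254). The 24 month libraries of Neurl1b were chosen low, and against 2 months the difference was 0.15 (SE 0.07, adjusted p = 0.0747, edgeR). Without replicates 2 to 5, which leaves 1 library at 30 months, the difference from 2 months was -0.06. The potassium channel gene Kcnt2 (ENSMUSG00000052726, chr1:140246158-140612067) was at 45.7 to 48.5 CPM at 2 months and 34.1 to 40.3 CPM at 24 months. At 30 months it was at 36.7, 15.4, 14.5, 15.2 and 11.03 CPM, so replicate 1 lay within the 24 month range and the others far below it. Its GC content, 36.6%, was the lowest of the members. The difference of 30 from 24 months was -1.01 with all libraries (SE 0.18, adjusted p = 0.000139) and -0.03 without replicates 2 to 5 (SE 0.09, adjusted p = 0.91). The others of this group were Dok4, Ppp1r14c (an inhibitor of protein phosphatase 1) and Kctd16 (a subunit of GABA-B receptors), with ratios of 0.745, 0.7601 and 0.788.

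Zfp57, a zinc finger protein that keeps DNA methylation at imprinted genes, was at 14.1, 11.4, 10.9, 13.9 and 11.2 CPM at 2 months, 6.72, 8.27, 7.75, 7.53 and 8.73 CPM at 24 months and 7.96, 6.598, 5.58, 5.37 and 5.63 CPM at 30 months. It was lower at 30 than at 2 months with all libraries (-0.98, SE 0.11, adjusted p = 3.53e-07) and without replicates 2 to 5 (-0.63, SE 0.15, adjusted p = 0.00694). The zinc finger genes Zfp382 and Zfp169 were near the limit on level and had ratios of 0.756 and 0.786. The remaining members were the small GTPase Arl5b, Urb2, which serves ribosome assembly, Frmd3, Ccdc28b, Spata2l, Smim18, 2700081O15Rik and Atp6ap1l. Their ratios ran from 0.728 to 0.788. Arl5b was spread widely at 2 months, at 31.1, 32.9, 42.6, 44.1 and 47.8 CPM.

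The members differed in when they dropped. Of the difference between the 2 and 24 month means, the median member had covered 43.4% by 9 months, with a range of 1.41 to 87.8%, and 64.2% by 15 months. The largest step was from 2 to 9 months in 25 members, from 9 to 15 months in 5 and from 15 to 24 months in 15. These intervals differ in length, and the rule chose the 2 month libraries high and the 24 month ones low. Nothing is therefore read from the small count of the middle interval. The shares rest on group means and carry no spread. By 9 months 17 members had covered more than 50% of it, among them Col1a2 (87.8%), Cnksr3 (84.7%), Marcksl1 (79.8%), Nrep (76.7%) and Met (75.7%). Another 8 had covered less than 20%: Sox11, Zfp382, Neurl1b, Gpr63, Ust, Kctd16, Urb2 and Fat3. More than 50% lay after 15 months in 6 members, namely Gpr63, Zfp382, Cntnap5b, Kctd16, Wnt7a and Ndst4.

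Counts of libraries that do not overlap are given as a description. They come from the libraries that chose the members, so they are no separate support for the timing. The 9 month libraries lay all below the 2 month ones in 13 of 45 members, against 4.57% of all genes tested. The 15 month libraries lay all below the 9 month ones in 4 members (Ccnd2, Neurl1b, Ust and Zfp169), against 5.06%, and the 24 month libraries all below the 15 month ones in 12, against 7.67%. Over the longer spans the counts were 27 of 45 for 15 below 2 months (5.78% of all genes) and 22 of 45 for 24 below 9 months (9.33%). For 24 below 2 months all 45 were so by the rule (7.42% of all genes). These contrasts chose the members, so nothing is read from the comparison with all genes.

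**Figure D4:**
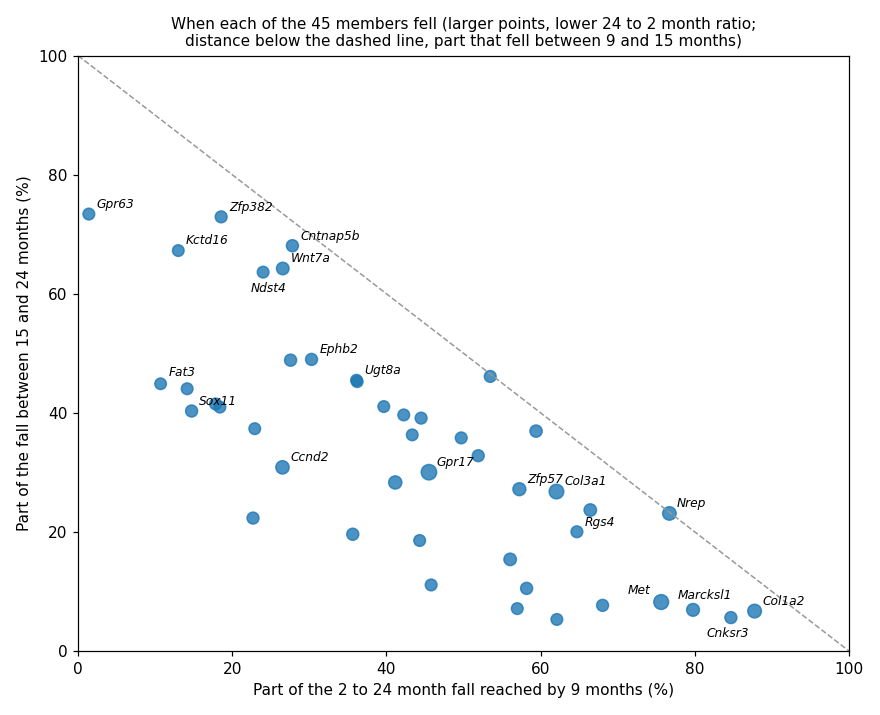
Share of each member's 2 to 24 month difference that was reached by 9 months (horizontal, %) against the share that lay between 15 and 24 months (vertical, %); each point is 1 of the 45 genes and larger points have a lower 24 to 2 month ratio. Col1a2, Cnksr3, Marcksl1 and Met lie at the lower right and Gpr63, Zfp382 and Cntnap5b at the upper left.

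At 30 months, the age the rule did not use, most members were still below 2 months. With all libraries, 32 of 45 were called lower than at 2 months in edgeR's quasi-likelihood test with Benjamini-Hochberg adjustment and 0 higher, against 29.5% lower and 28.5% higher over all 17799 genes tested. At an unadjusted p under 0.05, 1 member was higher, and with DESeq2 and with limma-voom 0 were called higher. The log2 fold changes of those called lower ran from -1.74 in Met to -0.22, and the median over the 45 members was -0.48, against 0.0099 over all genes. Without replicates 2 to 5, 17 of 45 were called lower and 0 higher, against 3.34% and 5.19% of 19208 genes tested, and 0 were higher at an unadjusted p under 0.05. In that fit 30 months has 1 library, which is assumed to vary like those of the other ages. With the GC offset 33 were called lower and 3 higher (Gpr63, Zfp169 and Ugt8a), against 21.6% and 24.2%. In these comparisons the 2 month libraries were chosen high by the rule.

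In all 3 fits, 12 members were called lower than at 2 months: Gpr17, Met, Ccnd2, Zfp57, Epha3, Dpysl3, Npnt, Cntnap5b, Rgs4, Atp6ap1l, Gpr26 and Kcnt2. Replicate 1 of 30 months lay below the lowest 2 month library in 35 of 45 members, against 25% of all genes, and all 5 libraries did so in 24 members, against 12.5%. The rule chose the 2 month libraries high, for the 12 members named as well, so nothing is read from these counts. Relative to the 24 month range, which the rule chose low, replicate 1 lay within it in 20 members, above it in 23 and below it in 2, against 53.1%, 23.6% and 23.3% of all genes, and nothing is read from the count above. Rgs4 and Atp6ap1l were those 2, at 341 and 5.26 CPM.

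Against 24 months members were called in both directions, in shares near those of all genes. With all libraries 14 were called lower and 13 higher, against 29% and 25.5% of all genes tested, and the median log2 fold change was 0.09. In these comparisons the 24 month libraries were chosen low by the rule. The lower ones were Cntnap5b (-1.10), Kcnt2 (-1.01), Epha3 (-0.80), Met (-0.69), Ndst4, Arl5b, Frmd3, Fat3, Kctd16, Cdh6, Zfp382, Atp6ap1l, Rgs4 and Zfp57. The higher ones were Wnt7a (0.68), Neurl1b (0.55), Spata2l, Cnksr3, Marcksl1, Ephb2, Dok4, 2700081O15Rik, Ccnd2, Ust, Ccdc28b, Urb2 and Nrep. The median GC content of the longest transcript was 44.7% in those called lower, 55.3% in those called higher and 50.04% in the 18 others. The 22 members with a GC content above the median of the members had a median log2 fold change of 0.22, and the other 23 one of -0.35. The same limit of GC content split all genes tested into 9494 with a median of 0.17 and 8244 with one of -0.33, so the difference is not particular to the members.

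Without replicates 2 to 5, 0 members were called lower than at 24 months and 2 higher (Wnt7a and Neurl1b), against 1.09% and 2.76% of the genes tested. At an unadjusted p under 0.05, 2 were lower and 10 higher. The median log2 fold change was then 0.09 for the members with the higher GC content and 0.08 for the others, against -0.011 and 0.0037 over all genes. Of the 14 called lower with all libraries, 9 were above 0 in this fit, and of the 13 called higher, 12 were. With the GC offset 4 were called lower (Met, Epha3, Cntnap5b and Fat3) and 13 higher, against 20.1% and 20.8%, with 8 of the 13 called higher in both. All 30 month libraries lay above all 24 month ones in 7 members (Marcksl1, Wnt7a, Ccdc28b, Ephb2, Cnksr3, Neurl1b and Ust), against 8.08% of all genes, and below them in 2, against 8.46%. The rule chose the 24 month libraries low, so nothing is read from the higher counts and medians of the members against 24 months. The part of GC content in the 30 month levels was not tested beyond these fits.

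**Figure D5:**
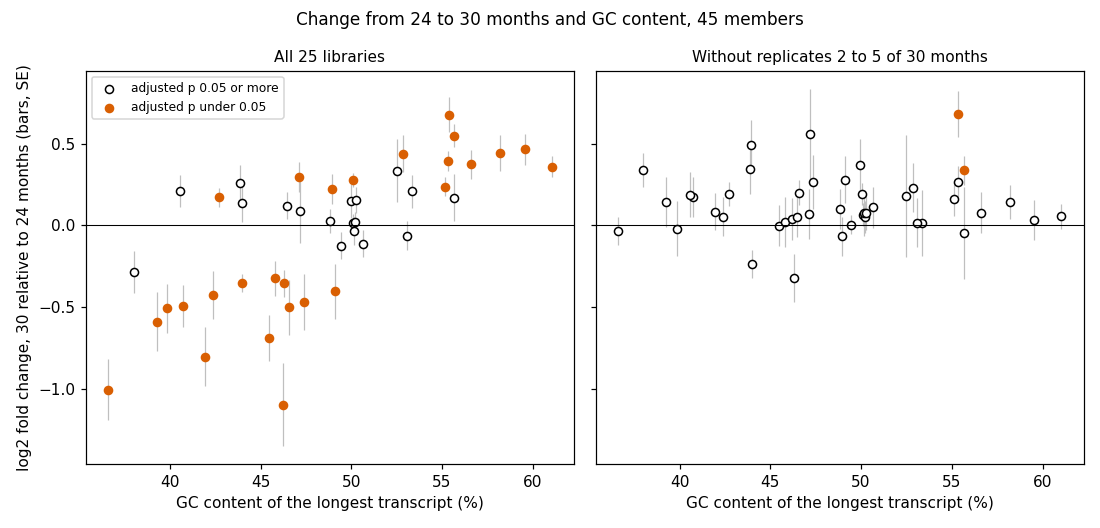
Log2 fold change of 30 relative to 24 months (vertical, bars SE) against the GC content of the longest transcript (horizontal, %) for the 45 members, with all 25 libraries on the left and without replicates 2 to 5 of 30 months on the right; filled points have an adjusted p under 0.05 in edgeR's test. On the left the called members below 0 have a median GC content of 44.7% and those above 0 one of 55.3%, and on the right 2 members, Wnt7a and Neurl1b, are called.

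Of the 45 members, 13 stand on one of the gene lists and 32 on none. The lists of astrocytes, microglia, endothelium, interneurons and excitatory neurons held no member. Of 12 astrocyte genes 2 were called higher at 24 than at 2 months (Gfap and S100b). Of 15 genes of excitatory neurons 1 was called lower (Lamp5), with a median log2 difference of -0.07 for the list.

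Beside the 11484 protein-coding genes that met the limit on level, the members were expressed at lower levels. Their median level over 2 to 24 months was 19.5 CPM, against 36.1 CPM, and per kilobase of exon 4.23 CPM, against 7.49 CPM. At 2 months 8 members were below 10 CPM, 34 between 10 and 100 CPM and 3 above (Rgs4, Gpr26 and Fat3). Their median spread within an age, as a coefficient of variation, was 7.34%, against 4.71%. The genes spanned a median of 42827 bases, against 28823, while exon length (5384 against 4964 bases) and GC content (48.95% against 49.7%) were closer. None of these features was tested. The members lay on 17 chromosomes, with none on 5, 14 or X. Chromosome 18 held 4 of them (Gpr17, Nrep, Dpysl3 and Kctd16), which is 1.18% of its 340 genes at the level limit. This was the highest share of any chromosome, followed by 0.873% on chromosome 6, against 45 of 11484 genes in all. These shares were not tested. The closest neighbours were Marcksl1 and Ccdc28b, 103 kilobases apart on chromosome 4, and Ndst4 and Ugt8a, 136 kilobases apart on chromosome 3.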

How the data were processed

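The data are 25 RNA libraries of male mouse brain hemisphere, 5 for each of the 5 ages. Per the submitters' processing notes, the authors used CASAVA 1.7, STAR 2.4.1d and featureCounts 1.4.6-p4 with GRCm38, and deposited raw counts per Ensembl gene. The annotation release, the strand setting and the treatment of multiply mapping reads are not given in the sources used here, so reads of overlapping or antisense genes and of near-identical copies cannot be told apart. The authors also deposited RPKM values. For 0% of 8837 well counted genes do their divisors follow the library totals within 1 percent, so they serve as an alternative only.

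The members and the 25 gene lists were chosen with earlier results of these data known. Of 47729 genes in the table, 47310 matched GENCODE M21 (GRCm38), which gave symbols, types, coordinates, exon lengths and GC content. The tests were run on counts with edgeR 4.0.16 in R 4.3.3. The function filterByExpr kept 17799 genes, TMM scaled the libraries, and 1 robust quasi-likelihood fit took a mean per age from all libraries. Tests are two-sided with Benjamini-Hochberg adjustment over all genes tested, at 0.05. The GC offset is a smooth curve over 40 bins of GC content per library, and the liver covariate is the mean log2 level of a list of 18 liver genes. The alternatives were RLE and total count scaling, no filter, DESeq2 1.42.0, limma-voom (limma 3.58.1), fewer samples, other limits of the rule, and each library left out.

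The genes chosen for description were Gpr17 and Met, the 15 members with the lowest ratio and up to 4 members per list. Added to them were up to 6 in each direction called in the 30 against 24 month test with and without replicates 2 to 5. That gave Wnt7a and Neurl1b as higher and 0 members as lower. The 3 genes on each side of each limit were added as well. Genes outside these that carry values were chosen after their values were seen. Some of the genes chosen for description, Col3a1, Col1a2 and Marcksl1 among them, are given without an SE or p-value. Replicates of an age differed beyond counting error, with a chi-square per degree of freedom of 1.55 to 6.97 in pairs of the younger ages and 4.965 to 146 in pairs of 30 months. The fit was tested on simulated counts. Promoter sequences are RefSeq's.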

Additional observations from a re-analysis of the deposited data

Results flagged for a closer look

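In the 27 members chosen for description, 135 groups of 5 libraries were examined for a library far from its age group, and 5 were found. Chance alone marks about 1 in 20 groups. Replicate 1 of 9 months was the lowest for Met, at 7.16 CPM against 8.002 to 8.21 CPM in the 4 others, and the highest for Dpysl3, at 68.4 CPM against 59.7 to 61.6 CPM. This library also had the low choroid plexus level of 365 CPM. Replicate 2 of 15 months was the highest for Met, at 7.53 CPM against 6.53 to 6.81 CPM. Replicate 4 of 30 months was the highest for Cnksr3, at 11.99 CPM against 7.49 to 8.16 CPM. Replicate 1 of 30 months was the highest for Kcnt2, at 36.7 CPM against 11.03 to 15.4 CPM, and the 4 others are those that stand apart in GC content.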

How the results depend on the processing

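The number of members was 23 with a ratio of at most 0.75, 108 with at most 0.85 and 0 with the deposited RPKM. Leaving out 1 library gave 40 to 71 members, the 71 without replicate 1 of 2 months, which was the lowest 2 month library for 22 of the 45. The 45 members shared 42 of 46 with RLE scaling, 34 of 45 with ordered medians, 32 of 39 with the GC offset and 40 of 61 with the liver covariate. With a liver covariate without Ttr and Trf, which was not planned, they shared 40 of 59. With filter and scaling from the 20 libraries of 2 to 24 months alone, they shared 42 of 43. In 30 against 24 months, the 14 called lower became 0 without replicates 2 to 5, 4 with the GC offset, 6 in a fit of only both groups and 0 without replicates 2 to 5 with the GC offset. The 13 called higher became 2 and 3 under the first and last of these. Leaving out 1 library gave 12 to 16 lower and 11 to 15 higher. In 30 against 2 months, the 32 called lower became 17 without replicates 2 to 5 and 31 to 35 without 1 library. The 0 called higher became 1 with total counts alone, 3 with the GC offset, and 0 to 1 without 1 library (1 without replicate 1 or replicate 2 of 30 months). Log2 fold changes of 30 against 24 months that changed sign without replicates 2 to 5 were Zfp57 (0.022), Epha3 (0.081), Cntnap5b (0.039), Zfp382 (0.28), Urb2 (-0.069), Fat3 (0.20), Ugt8a (0.34) and Col1a2 (-0.049). With the GC offset they were Arl5b (0.26), Ugt8a (0.63), Col1a2 (-0.046), Dpysl3 (-0.015) and Npnt (-0.015). Without replicates 2 to 5 and with the offset, chosen after seeing the data, they were Met (0.0037), Zfp57 (0.028), Epha3 (0.10), Arl5b (0.010), Cntnap5b (0.045), Zfp382 (0.29), Urb2 (-0.059), Kcnt2 (0.014), Fat3 (0.21), Ugt8a (0.38) and Col1a2 (-0.025). Over genes and settings, 417 values kept direction and side of the threshold, 45 lost it, 16 passed it and 35 changed sign, 17 of these with no call in either fit. The cause of these changes was not tested. Without replicates 2 to 5, the smaller number of libraries and the GC content of those left out cannot be told apart. No paired analysis was possible because replicate numbers here only name libraries in accession order and pair no animals. At 2 months 8 members were below 10 CPM, and the part of depth in their values was not tested.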
